A study of Mus musculus with 6 samples.

Results

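Ribosome biogenesis factors are the proteins that transcribe, modify, cut and fold ribosomal RNA and assemble it with ribosomal proteins. The list holds 43 mouse genes. Members were found by symbol among probe sets that the platform annotation gives to 1 gene, and a gene with several such probe sets was represented by its brightest probe set. This named 40 of the 43, and 40 of 40 lay above the intensity filter, among 11292 genes tested of 18820 named. Tsr1 and Ebna1bp2 lie on probe sets that name several genes, Gtpbp4 has no entry in the annotation used, and none of these is analysed here.

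The arrays measure C2C12 cells, an established mouse muscle precursor line whose cells fuse to myotubes once serum is lowered. The silenced group (3 arrays) received an LNA oligonucleotide against miR-382-5p by transfection, and the control group (3 arrays) received negative control A, both at 50 nM on day 6 of differentiation and harvested 24 h later, on day 7. Both groups share the cell line, the transfection reagent and the serum values, given as 10% fetal bovine serum and 2% horse serum. No agent other than the oligonucleotide differs in the labels. Replicate numbers 1 to 3 occur once in each group, and no label says whether a number marks a culture, a day or a well, so the p-values reflect only how far these 6 arrays scatter, which may be technical.

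In the nucleolus, RNA polymerase I transcribes a long precursor of ribosomal RNA. Small nucleolar ribonucleoproteins (snoRNPs) modify it, the small-subunit processome folds and cuts it, and separate sets of factors carry the pre-40S and pre-60S particles to the cytoplasm. Proliferating myoblasts are known for a high output of ribosomes, which is lowered as they leave the cell cycle and fuse, and Myc is a well-known activator of these genes.

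The molecule that was silenced is shown because it defines the treated group. Its seed (bases 2 to 8) is in capitals, and the sequence is RefSeq's, from the plus strand at chr12:109733781-109733802 of GRCm38.p6.
mmu-miR-382-5p: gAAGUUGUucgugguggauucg

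Promoters are shown for 3 factors: Nmd3, the factor with the largest difference between silenced and control arrays, Rrn3, which recruits RNA polymerase I, and Nop14, the factor with the smallest p between replicate numbers. Each window runs from 250 bases before to 50 after the gene's start in RefSeq (GRCm38.p6). Capitals mark CACGTG, the palindromic E-box bound by Myc and Max, and TCGCGAGA on either strand (TCTCGCGA on the other), an element searched after the Nmd3 and Nop14 windows had been read. The Nmd3 window is chr3:69721805-69722104 (plus strand), the Rrn3 window is chr16:13780449-13780748 (plus strand) and the Nop14 window is chr5:34660099-34660398 (minus strand).
Nmd3: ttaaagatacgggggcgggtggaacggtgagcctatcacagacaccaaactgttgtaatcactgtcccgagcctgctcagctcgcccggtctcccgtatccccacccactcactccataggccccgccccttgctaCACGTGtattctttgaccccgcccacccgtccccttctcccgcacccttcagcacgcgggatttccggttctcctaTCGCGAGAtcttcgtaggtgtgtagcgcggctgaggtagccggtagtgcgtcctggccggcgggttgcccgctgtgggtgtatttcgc
Rrn3: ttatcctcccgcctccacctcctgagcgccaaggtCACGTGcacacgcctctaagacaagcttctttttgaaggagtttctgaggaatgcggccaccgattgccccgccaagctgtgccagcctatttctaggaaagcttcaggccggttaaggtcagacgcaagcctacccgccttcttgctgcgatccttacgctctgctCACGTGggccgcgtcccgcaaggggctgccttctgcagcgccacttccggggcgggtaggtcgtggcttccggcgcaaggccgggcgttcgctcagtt
Nop14: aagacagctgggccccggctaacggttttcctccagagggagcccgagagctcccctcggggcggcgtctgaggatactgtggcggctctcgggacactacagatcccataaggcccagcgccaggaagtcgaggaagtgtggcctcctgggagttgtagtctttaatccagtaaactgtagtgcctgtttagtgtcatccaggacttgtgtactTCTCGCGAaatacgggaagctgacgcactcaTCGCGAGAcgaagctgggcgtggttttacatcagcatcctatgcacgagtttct

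Of the 34 tested factors with a promoter window, 8 (23.5%) held CACGTG, against 1066 of 9036 tested genes with a window (11.8%) and 7.15% of all 32851 windows. These 8 were Pes1, Nop2, Rrn3, Utp18, Utp20, Wdr43, Nmd3 and Ltv1. TCGCGAGA, chosen from the Nmd3 and Nop14 windows, was found in 1 of the other 32 (3.12%), that of Nop58, against 2.58% of tested genes and 0.995% of all windows. In Nmd3 the E-box began 114 bases and TCGCGAGA 38 bases before the start, and Rrn3 held 2 E-boxes, 215 and 48 bases before it. These matches describe letters in a window and were not tested.

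The labels name the sampled cells myotubes and the line a myoblast line. Of 16 myotube markers 16 passed the intensity filter, as did 8 of 8 markers of undifferentiated myoblasts, 10 of 10 named markers of proliferating cells and 8 of 9 fibroblast markers. Only 1 of 6 adipocyte markers and 3 of 7 osteoblast and chondrocyte markers passed it. The leading principal component of the tested genes (46.8% of variance) placed the arrays numbered 1 at -19.3 (silenced) and -15.0 (control), with the remaining 4 at 7.29 to 9.96. Counts and the list median for silencing are therefore also given without them.

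No ribosome biogenesis factor changed between silenced and control arrays by limma's adjusted p (0 of 40), where the background was 0 of 11292 genes (0%). The median difference over the 40 factors was -0.031 log2, against 0.0089 over all tested genes, with 26 factors lower (65% against 47.3% of all genes) and 14 higher in silenced arrays. Sizes were small: differences ran from -0.49 for Nmd3 to 0.18 for Nolc1, and for 39 of the 40 the unadjusted 95% interval excluded a difference of 1.5-fold in either direction (89.6% of all genes), Nmd3 being the exception. At an unadjusted p under 0.05 there were 2 factors, Nmd3 and Wdr12, which is 5% of the list against 4.8% of all genes. Both were lower (1.97% of all genes) and 0 were higher (2.83% of all genes). Blocking on replicate number gave 4, which is 10% against 10.3% of all genes: Nmd3, Rrs1 and Wdr12 were lower (4.57% of all genes) and Nolc1 was higher (5.77% of all genes). With the block, too, 0 of 40 factors and 0% of all genes passed the adjusted threshold. In bulk RNA, fewer cells of a type and less RNA per cell cannot be told apart.

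**Figure D1:**
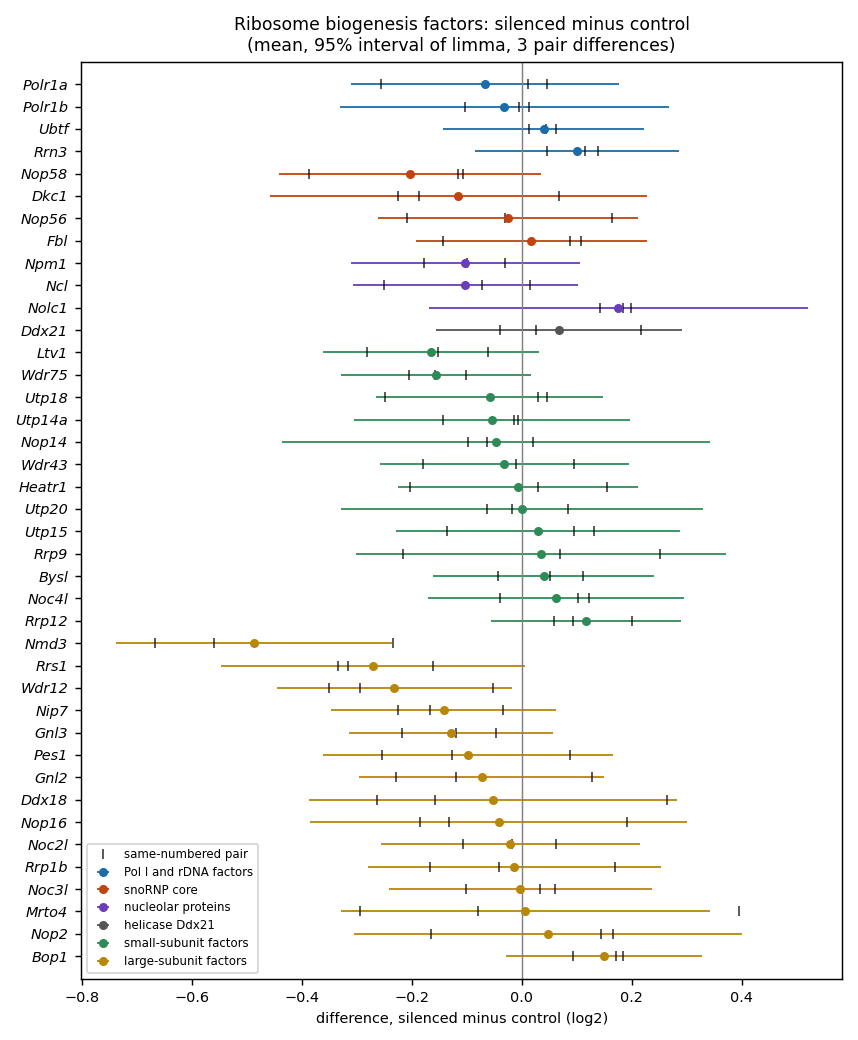
Difference of each of the 40 factors, silenced minus control, on the log2 scale (x axis), with genes grouped by role on the y axis. Points are means with limma's 95% interval, black ticks are the 3 same-numbered pair differences, and Nmd3 stands farthest from 0 at -0.49.

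For 8 factors all 3 silenced arrays lay below all 3 control arrays (Nop58, Wdr12, Rrs1, Gnl3, Nip7, Wdr75, Nmd3 and Ltv1), which is 20% of the list against 4.87% of all tested genes. For 3 factors (Bop1, Rrn3 and Rrp12) all silenced arrays lay above all control arrays, 7.5% against 6.94%. Either way, 11 factors separated the groups (27.5% against 11.8%). Within the same-numbered pairs, 10 factors were lower in silenced in all 3 (25% against 15.8% of all genes) and 5 were higher in all 3 (12.5% against 19.7%). Without both arrays numbered 1, an alternative added after the data were seen, 13 factors were lower without overlap (32.5% against 22% of all genes, over 2 arrays a group). After repeated quantile normalization 7 factors were lower without overlap (17.5% against 5.18%). The list's median was -0.085 without both arrays numbered 1. It was 0.0076 without silenced replicate 3, where 19 factors were lower, so the direction of the list rests on that array. Within replicate numbers 1, 2 and 3 the list's median differences were 0.032, -0.029 and -0.17, against 0.031, -0.0081 and 0.0094 over all genes. Members were measured on the same RNA and are not replicates of each other. Of 16 myotube markers, 13 had a higher mean in silenced arrays, with a median of 0.11 and 0 past limma's adjusted threshold. Unadjusted p lay under 0.05 for 5 of them (Myh1, Myh3, Neb, Cacna1s and Mymk), each higher in silenced arrays (2.83% of all genes were). The list's centred mean was -0.021, 0.015 and 0.19 in silenced replicates 1, 2 and 3, against -0.034, -0.12 and -0.030 in control replicates 1, 2 and 3. Silenced replicate 3 thus had the highest mean of myotube markers and the lowest mean of ribosome biogenesis factors. It also had the lowest centred mean of proliferating cell markers (-0.38), a list described below. The part of either marker list in the levels of the factors was not tested.

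Among pre-60S factors, 12 of 15 were lower and 3 higher in silenced arrays, with a median of -0.053 and 0 called. Nmd3, the adaptor that carries the pre-60S particle out of the nucleus, read 8.31, 8.08 and 8.01 log2 in silenced replicates 1, 2 and 3, against 8.55, 8.75 and 8.57 in control replicates 1, 2 and 3. All silenced arrays lay below all control arrays, with means of 8.14 ± 0.16 in silenced and 8.62 ± 0.11 in control arrays (SD, n = 3 each). The difference of -0.49 ± 0.11 (SE; 1.40-fold lower) had an unadjusted p of 0.0024 and an adjusted p of 0.871 by limma. Across the 14 alternative settings it lay between -0.61 and -0.42, and its smallest adjusted p was 0.392.

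Wdr12, Pes1 and Bop1 form the PeBoW complex, which acts in large-subunit rRNA processing, and these 3 did not share a direction. Wdr12 read 8.26, 8.28 and 8.20 in silenced arrays, against 8.56, 8.33 and 8.55 in control arrays, a difference of -0.23 ± 0.09 (SE; limma, adjusted p = 0.871). Bop1 read 9.46, 9.46 and 9.41 in silenced arrays, against 9.37, 9.28 and 9.24 in control arrays, a difference of 0.15 ± 0.08 (SE; limma, adjusted p = 0.871). The silenced arrays thus lay below the control arrays for Wdr12 and above them for Bop1. Pes1 overlapped between groups, at 8.91, 8.79 and 8.73 in silenced and 9.04, 8.70 and 8.98 in control arrays. A second probe set of Wdr12 gave a difference of -0.20 ± 0.15 (SE), and there the groups overlapped, at 6.34, 6.20 and 6.13 in silenced and 6.71, 6.18 and 6.40 in control arrays.

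Rrs1, which with Rpf2 brings the 5S RNA particle into the pre-60S, read 5.40, 5.41 and 5.11 in silenced arrays, against 5.72, 5.57 and 5.44 in control arrays. The groups did not overlap, though silenced replicate 2 lay only just below control replicate 3. Its difference was -0.27 ± 0.12 (SE; limma, adjusted p = 0.871), and with the replicate block its unadjusted p was 0.0117 (adjusted p = 0.464). Gnl3 (nucleostemin), a nucleolar GTPase, had its highest silenced array level with its lowest control array to 3 decimals (8.553 in both). It differed by -0.13 ± 0.08 (SE) and Nip7, which acts in 27S and 60S maturation in yeast, by -0.14 ± 0.09 (SE; limma, adjusted p = 0.871 for both). The other pre-60S factors overlapped between groups: differences were -0.073 for the GTPase Gnl2, -0.053 for the helicase Ddx18, -0.042 for Nop16, -0.021 for Noc2l, -0.013 for Rrp1b, -0.0024 for Noc3l, 0.0068 for Mrto4 and 0.049 for the rRNA methyltransferase Nop2.

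**Figure D2:**
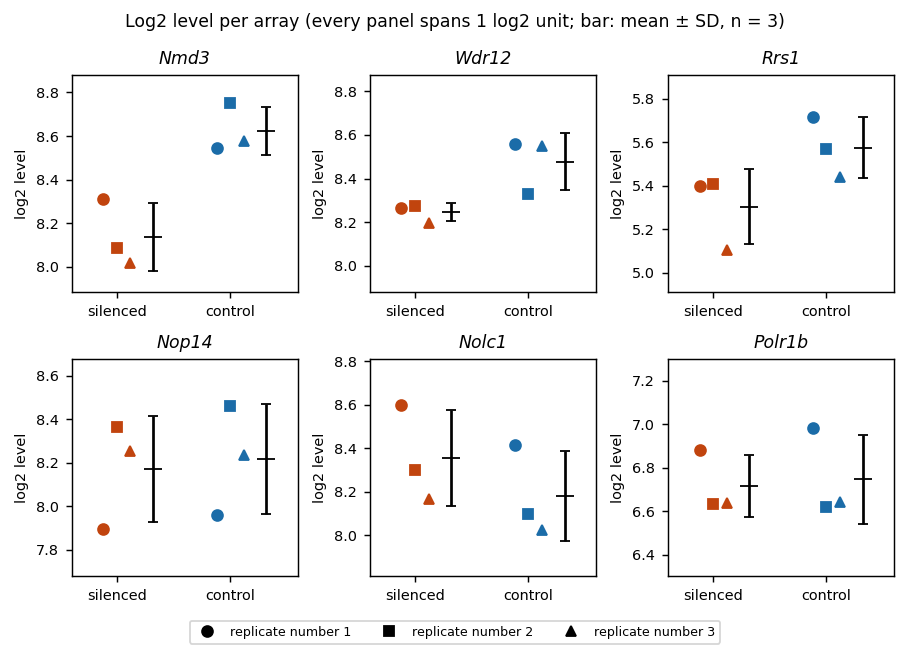
Log2 level per array (y axis, each panel spanning 1 log2 unit) for 6 factors, with silenced arrays left of control arrays and the symbol giving the replicate number. Bars are mean ± SD (n = 3). Nmd3, Wdr12 and Rrs1 separate the groups without overlap, while for Nop14, Nolc1 and Polr1b the arrays numbered 1 stand apart in both groups.

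The small-subunit factors were split between directions, 7 lower and 6 higher of 13 in silenced arrays, with a median of -0.0065 and 0 called. Wdr75, a member of the UtpA complex that binds the nascent pre-rRNA first, read 8.41, 8.33 and 8.34 in silenced arrays, against 8.51, 8.48 and 8.54 in control arrays. The groups did not overlap, and the difference was -0.16 ± 0.07 (SE; limma, adjusted p = 0.871). The other UtpA members on the list overlapped, with differences of -0.032 for Wdr43, -0.0065 for Heatr1 and 0.030 for Utp15. Ltv1, a pre-40S assembly factor released in the cytoplasm, read 7.44, 7.29 and 7.25 in silenced arrays, against 7.50, 7.44 and 7.53 in control arrays. Its highest silenced array lay level with its lowest control array to 2 decimals, with a difference of -0.16 ± 0.08 (SE; limma, adjusted p = 0.871). Rrp12, an export factor of both subunits in yeast, lay the other way, at 6.92, 6.90 and 6.96 in silenced and 6.83, 6.84 and 6.76 in control arrays, a difference of 0.12 ± 0.07 (SE; limma, adjusted p = 0.871). The remaining 7 (Nop14, Noc4l, Utp14a, Utp18, Utp20, Rrp9 and Bysl) ranged from -0.058 for Utp18 to 0.062 for Noc4l.

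RNA polymerase I and its factors gave differences from -0.066 to 0.10 over 4 genes, 2 lower and 2 higher, with 0 called. Polr1a, the largest subunit, read 7.24, 6.92 and 7.20 in silenced and 7.23, 7.17 and 7.16 in control arrays. Polr1b, the second subunit, read 6.88, 6.63 and 6.64 in silenced and 6.98, 6.62 and 6.64 in control arrays. Both overlapped between groups, and their differences of -0.066 (95% interval -0.31 to 0.18) and -0.031 (-0.33 to 0.27) did not keep their sign. Without silenced replicate 2 Polr1a was at 0.035, and Polr1b turned positive without silenced replicate 2 (0.011), silenced replicate 3 (0.0089) or control replicate 1 (0.086). Ubtf, which bends rDNA into an active template, differed by 0.040 (-0.14 to 0.22). Rrn3, whose promoter holds the 2 E-boxes shown above, read 9.24, 9.14 and 9.12 in silenced and 9.12, 9.00 and 9.08 in control arrays. Its silenced arrays lay just above its control arrays, with a difference of 0.10 ± 0.08 (SE; limma, adjusted p = 0.878).

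Of the snoRNP core proteins, 3 of 4 had a lower mean in silenced arrays. Nop58 of the box C/D particle, which guides 2'-O-methylation, read 9.53, 9.44 and 9.21 in silenced arrays, against 9.65, 9.55 and 9.60 in control arrays. The groups did not overlap, and the difference was -0.20 ± 0.10 (SE; limma, adjusted p = 0.871). Its partner Nop56 differed by -0.025, the methyltransferase Fbl by 0.018 and Dkc1, the pseudouridine synthase of the box H/ACA particle, by -0.12, each with overlap. Among abundant nucleolar proteins, Ncl and Npm1 each differed by -0.10 ± 0.09 (SE). The arrays overlapped for both, with Ncl at 10.79, 10.73 and 10.65 in silenced and 10.87, 10.72 and 10.90 in control arrays, and Npm1 at 10.85, 10.67 and 10.64 in silenced and 10.88, 10.77 and 10.81 in control arrays. Npm1 has 4 single-gene probe sets, whose differences ran from -0.20 to -0.0080, and signal of its processed copies cannot be told apart from its own. The helicase Ddx21, which acts on rDNA and pre-rRNA, differed by 0.068 with overlap.

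**Figure D3:**
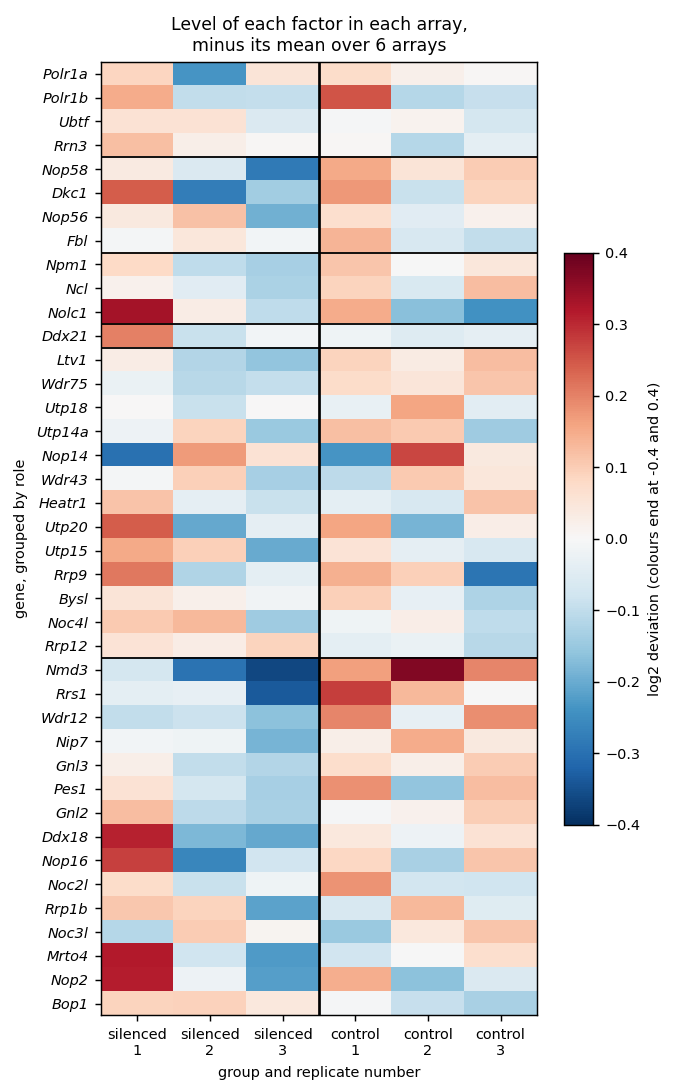
Deviation of each factor from its own mean over 6 arrays (colour, log2; colours end at -0.4 and 0.4), with arrays as columns and genes grouped by role as rows. Silenced replicate 1 was above the gene's mean for 30 of 40 factors and silenced replicate 3 for 7 of 40.

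The replicate number, which has 2 degrees of freedom against 1 for silencing, took the larger share of the variation, as it did over all genes. It took a median of 52.9% of a factor's sum of squares over the 6 arrays, and silencing took 9.7%, against 49.6% and 14.2% over all tested genes. Averaged over silenced and control arrays, number 1 was above number 3 for 37 of 40 factors (92.5% against 51.4% of all genes). By the same average it was above number 2 for 31 of 40 (77.5% against 51.8%). An average above 0 need not hold within each group: Ncl read 10.87 in control replicate 1 and 10.90 in control replicate 3. The median differences were 0.13 for number 1 minus 3 and 0.092 for number 1 minus 2, against 0.0069 and 0.0079 over all genes. For number 2 minus 3 the median was 0.026, with 22 of 40 above 0 (55% against 50.2%). The mean level of the 40 factors, each centred on its own mean, was 0.083, -0.043 and -0.11 in silenced replicates 1, 2 and 3, against 0.063, 0.0015 and 0.0040 in control replicates 1, 2 and 3. Both arrays numbered 1 were thus above the other 4 for the list as a whole. Without silenced replicate 1 the median of number 1 minus 2 was 0.034, and 27 factors had number 1 above number 3.

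Few of these differences passed a test. By limma's F test of the replicate number, with group in the fit, 0 of 40 factors passed the adjusted threshold, where 3.12% of all genes did. At an unadjusted p under 0.05 there were 6 factors (Nop14, Nolc1, Utp20, Polr1b, Dkc1 and Nop2), 15% of the list against 20.4% of all genes. Of the pairwise differences, 1 passed: Nop14 for number 1 minus 2 (2.5% of the list against 2.75% of all genes). None passed for number 1 minus 3 (4.47% of all genes) or for number 2 minus 3 (0%). A further setting gave the variance model an intensity trend and a robust prior, together called the intensity trend below. With both, 5 of 40 factors passed the F test (Dkc1, Nolc1, Nop2, Nop14 and Utp20), 12.5% against 9.65% of all genes. With a stricter filter on dim genes 3 of 38 did (Nolc1, Nop14 and Utp20), 7.89% against 11.3%.

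Nop14, which with Noc4l is needed to make the 18S rRNA, went against the list. It read 7.90, 8.36 and 8.25 in silenced replicates 1, 2 and 3, and 7.96, 8.46 and 8.23 in control replicates 1, 2 and 3. Both arrays numbered 1 lay below the other 4, and number 1 was lower than number 2 by limma, with a difference of -0.49 ± 0.09 (SE; adjusted p = 0.0498). The call was lost without any one of the arrays except control replicate 1 (adjusted p from 0.0360 to 0.194 over the 6), with no filter on dim genes (0.133) and with the most variable probe set per gene (0.0634). It held with the stricter filter (adjusted p = 0.0078 by limma), the intensity trend (0.0036), repeated quantile normalization (0.041) and no group term (0.045). The difference itself lay between -0.53 and -0.45 over these settings. Its partner Noc4l differed by -0.034 between numbers 1 and 2, and Noc3l, a pre-60S factor, was the only other member with both arrays numbered 1 below the other 4 (2 of 40, 5% against 15.3%).

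Both arrays numbered 1 lay above the other 4 for 10 factors (25% against 16% of all genes): Dkc1, Npm1, Nolc1, Nop2, Polr1a, Polr1b, Noc2l, Utp20, Rrp9 and Bysl. Npm1 is counted here by its brightest probe set. Its other probe sets were not alike in control replicates 1, 2 and 3: 10.47, 10.32 and 10.44, then 9.93, 9.96 and 10.01, then 10.71, 10.77 and 10.82. Nolc1, a chaperone of snoRNPs, read 8.60, 8.30 and 8.17 in silenced replicates 1, 2 and 3, and 8.41, 8.10 and 8.02 in control replicates 1, 2 and 3. Its number 1 minus 3 difference was 0.41 ± 0.09 (SE; limma, adjusted p = 0.0575), and within each number silenced was above control by 0.14 to 0.20. Polr1b had 6.88 and 6.98 in the silenced and control arrays numbered 1, above the other 4 arrays at 6.62 to 6.64, with an F test adjusted p of 0.168 (limma). Utp20, a large scaffold of the small-subunit processome, had 7.71 and 7.63 in the silenced and control arrays numbered 1, above 7.26 and 7.28 in those numbered 2 and 7.43 and 7.50 in those numbered 3 (limma, F test adjusted p = 0.133). Dkc1, Nop2 and Nop16 had adjusted p of 0.184, 0.200 and 0.246, and Rrs1, Utp14a and Rrp9 had 0.246, 0.302 and 0.317 (limma, F test). For Nop16, silenced replicate 1 (8.23) was the highest array, while control replicate 1 (8.04) lay below control replicate 3 (8.07).

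**Figure D4:**
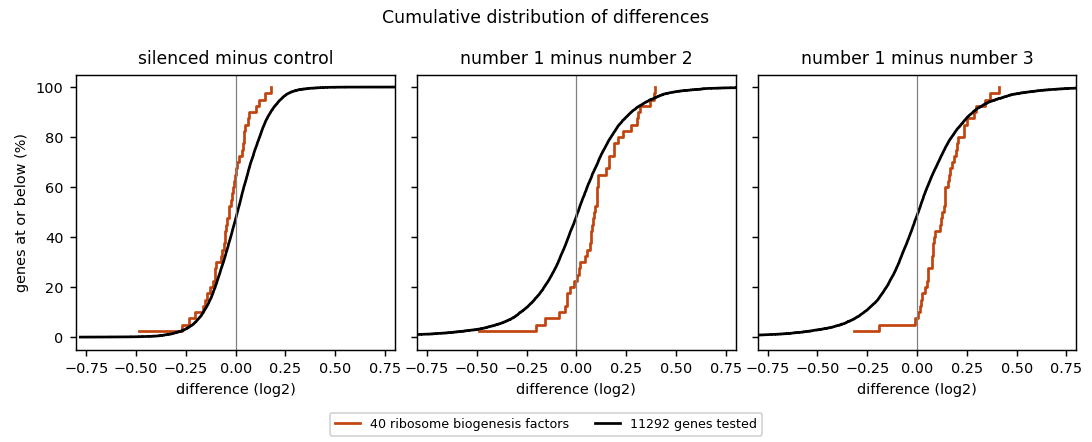
Cumulative distribution of log2 differences (x axis) for the 40 factors and for all 11292 tested genes (y axis, percent of genes at or below). For silenced minus control the factors end at 0.18 on the right and lie slightly left of all genes at the median. For number 1 minus 2 and number 1 minus 3 they lie to the right of all genes over most of the range.

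Some cell type markers passed the F test of the replicate number, which 3.12% of all genes passed. Of 10 markers of proliferating cells, 3 passed it (Top2a, Bub1 and Plk1), and the number 1 minus 3 median of the 10 was 0.62. The list's centred mean was 0.32, -0.0035 and -0.38 in silenced replicates 1, 2 and 3, against 0.31, -0.078 and -0.17 in control replicates 1, 2 and 3. Between silenced and control arrays its median was -0.041, with 6 of 10 lower. Within replicate numbers 1, 2 and 3 its median differences were -0.053, 0.097 and -0.21, with 6, 2 and 10 of 10 lower in silenced arrays. Of 8 undifferentiated myoblast markers 2 passed the F test (Id2 and Ccnd1, both highest in the arrays numbered 1). Over the 8, the number 1 minus 3 median was 0.10, with 6 above 0, and 5 had number 1 above number 2. Myf5 and Pax7 went the other way, each lowest in the array numbered 1 of both groups. Myf5 read 7.12, 7.44 and 7.23 in silenced and 7.32, 7.62 and 7.48 in control replicates 1, 2 and 3. Pax7 read 5.91, 5.97 and 5.92 in silenced and 5.57, 5.80 and 5.78 in control replicates 1, 2 and 3. Of 8 fibroblast markers 2 passed it (Dcn and Lum, both lowest in the arrays numbered 1), with a number 1 minus 3 median of -0.26 over the 8. The fibroblast list's centred mean was -0.23, -0.016 and 0.12 in silenced replicates 1, 2 and 3, against -0.19, 0.13 and 0.18 in control replicates 1, 2 and 3. Of 16 myotube markers 0 passed the F test. Their number 1 minus 3 median was -0.058, with 4 above 0, and their number 2 minus 3 median was -0.099, with 1 above 0. These marker lists describe transcripts of C2C12 cultures, and their part in the levels of ribosome biogenesis factors was not tested. Myc ran the other way, at 8.47, 8.90 and 8.70 in silenced replicates 1, 2 and 3, and 8.59, 8.96 and 8.70 in control replicates 1, 2 and 3. Its lowest level in both groups was in the array numbered 1 (limma, F test adjusted p = 0.127), and it differed by -0.057 ± 0.140 (SE) between silenced and control arrays.

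The rest of the pathway was 111 further genes in 5 lists. It gave the same counts of 0 for the adjusted tests of silencing and of replicate number. Of all tested genes, 0% passed for silencing and 3.12% passed the F test. The median silenced minus control difference of the 111 was -0.037, with 71 lower and 40 higher, where 47.3% of all genes were lower. By limma, unadjusted p was under 0.05 for 3 lower and 2 higher of the 111, against 1.97% and 2.83% of all genes. The number 1 minus 3 median was 0.041, against 0.13 for the 40 factors, a difference that was not tested. Among the other 41 large-subunit factors (23 lower, median -0.036), Rpf2, the partner of Rrs1, differed by -0.27 ± 0.07 (SE) and Nol9, a polynucleotide kinase, by 0.18 ± 0.08 (SE). Among 37 small-subunit factors (26 lower, median -0.025), Nol6 differed by 0.26 ± 0.11 (SE) and the helicase Ddx52 by -0.19 ± 0.09 (SE). Among 12 genes of the RNA exosome, which trims rRNA precursors (8 lower, median -0.087), its cofactor Mphosph6 differed by -0.36 ± 0.11 (SE) and Exosc9 by -0.25 ± 0.09 (SE). Among 11 genes of RNA polymerase I (8 lower, median -0.090), Polr1e differed by -0.17 ± 0.09 (SE) and Twistnb by -0.21 ± 0.12 (SE). Among 10 snoRNP genes (6 lower, median -0.050), Gar1 and Ruvbl1 each differed by 0.21, with SE of 0.09 and 0.12. The adjusted p was 0.871 for each of these 10 genes (limma). In the Myc network (4 of 10 lower, median 0.056), the Max partner Mnt differed by 0.29 ± 0.11 (SE; limma, adjusted p = 0.871) and Mxd1 by 0.12 ± 0.10 (SE; adjusted p = 0.879). For the replicate number, the 3 genes with the smallest p per list gave limma F test adjusted p from 0.0917 for Mxd3 to 0.360 for Polr1c, with Shq1, an assembly factor of the H/ACA particle, at 0.122.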

How the data were processed

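RNA of 6 samples was hybridised to 1-colour Affymetrix arrays. The authors deposited log2 expression values for 35556 probe sets, made with RMA per the submitters' processing notes, with its version and software not given in the sources used here. This summary draws differences of dim genes toward 0. Gene symbols came from GEO's platform annotation (21218 name 1 gene, 1881 several), and genes whose mean over 6 arrays lay above the 40th percentile (3.87 log2) were tested. The silencing contrast used limma 3.58.1 (R 4.3.3) (2-sided, no covariate, Benjamini-Hochberg over 11292 genes, threshold 0.05). The replicate number was tested with limma's F test (2 degrees of freedom) and pairwise contrasts in a fit with group. The steps were tested on simulated data. Over all tested genes, residuals about each group's mean correlated at 0.55, 0.35 and 0.42 within numbers 1, 2 and 3. Between unlike numbers they ran from -0.44 to 0.19. Centring on each group's mean pushes these below 0 on balance where the same-numbered values are positive, so they are not separate evidence of pairing. On the basis of the same-numbered values, since no label states a pairing, the replicate block was fitted as a paired alternative beside the unpaired main contrast. Over the 40 factors the residuals correlated at 0.46, 0.48 and 0.096 within numbers 1, 2 and 3. The value for number 3 lay below that of silenced replicate 3 with control replicate 2 (0.13). The members and lists were chosen with earlier results of these data known. Genes given full statistics are the 10 members with the smallest p in each comparison and a panel of 7 (Polr1a, Polr1b, Rrn3, Ubtf, Ncl, Npm1 and Fbl). From each other list the genes with the smallest p (2 for silencing, up to 3 for replicate number) were eligible to be named. The level of the silenced miRNA itself is not analysed here, and having 3 arrays a group limits precision. Alternatives were filters, normalization, variance model, probe set choice, array weights, a replicate block and leaving out arrays.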

Additional observations from a re-analysis of the deposited data

How the results depend on the processing

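No adjusted call between silenced and control arrays, over all genes or over the 40 factors, arose under any of the 14 alternatives. The unadjusted count over all genes, 542, was 834 with no filter, 1109 with array weights, 1168 with the replicate block and 1160 without both arrays numbered 1, and 272 to 828 leaving out 1 array. That of the factors was 2 of 40 (5% against 4.8% of all genes). It was 1 of 38 with the most variable probe sets (2.63% against 4.63%), 6 with array weights (15% against 9.82%) and 4 with the replicate block (10% against 10.3%). It was 1 without both arrays numbered 1 (2.5% against 10.3%) and 1 to 5 leaving out 1 array (2.5% to 12.5%, against 2.41% to 7.33%). The replicate block changed no call. Factors with silenced below control numbered 13 without both arrays numbered 1 (32.5% against 22% of all genes) and 8 to 13 leaving out 1 array (20% to 32.5%, against 7.16% to 13.2%), where fewer arrays make separation easier, and 7 or 8 under the other settings. Leaving out 1 array, the list median was -0.084 to 0.0076 and 19 to 30 factors were lower. Polr1b was 0.0042 without both arrays numbered 1 and -0.11 to 0.086 leaving out 1 array, Polr1a -0.13 to 0.035 and Fbl -0.027 to 0.090. For the replicate number, 352 genes passed the F test, with 58 under no filter, 847 under the filter at the 60th percentile, 1090 under the intensity trend and 17 to 1070 leaving out 1 array. For number 1 minus 2 the counts were 311, then 129, 817, 1018 and 69 to 1036, and for number 1 minus 3 they were 505, then 99, 816, 1084 and 0 to 1007, in the same order. Factors passing the F test numbered 3 of 38 under the stricter filter (7.89% against 11.3% of all genes) and 5 of 40 under the trend (12.5% against 9.65%). Those called for number 1 minus 2 numbered 0 with no filter (0.685% of all genes) and with the most variable probe sets (2.25%). They numbered 5 of 38 under the stricter filter (13.2% against 10.9%) and 5 of 40 under the trend (12.5% against 9.02%). Those called for number 1 minus 3 numbered 3 of 38 under the stricter filter (7.89% against 10.8%) and 3 of 40 under the trend (7.5% against 9.6%). After repeated quantile normalization 1 of 40 was called for number 1 minus 3 (2.5% against 5.31%). The median of number 1 minus 2 was 0.034 to 0.14 and that of number 1 minus 3 was 0.071 to 0.17 leaving out 1 array, with 27 to 37 factors above 0 for the second. Causes were not tested. The filters change both the number of genes tested and the genes to which limma's variance model is fitted, and these were not separated.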
